A study of Homo sapiens with 8 samples.

Results

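The MHC class I presentation genes described here are 9 genes of 62649 counted in each library, taken by name and matched to 1 Ensembl gene each. They are 4 class I heavy chains (HLA-B, HLA-C, HLA-E and HLA-F), the light chain B2M, the peptide transporter subunits TAP1 and TAP2, the loading factor TAPBP, and NLRC5. The 8 libraries of poly-A RNA formed 4 groups of 2: SW620 with caffeine, SW620 control, SW480 with caffeine and SW480 control. SW480 is a colorectal adenocarcinoma line from a primary tumour and SW620 a line from a lymph node metastasis of the same patient. Per the labels, all groups carried the B8-mCherry fusion, which makes immunoproteasomes fluorescent, and grew in DMEM with fetal calf serum, and controls had no caffeine. Caffeine doses named in the labels for SW620 cultures are 30 to 500 µM over 72 hours, besides 125 µM over 28 days. Neither dose nor time is given for the libraries that were sequenced, and no dose at all for SW480. The labels call the replicates biological, and whether they were grown on different days is not stated.

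Class I molecules show fragments of the cell's own proteins to CD8 T cells and to natural killer cells. A heavy chain folds with beta-2 microglobulin (B2M) in the endoplasmic reticulum, the TAP1 and TAP2 subunits pump in peptides made by the proteasome, and tapasin (TAPBP) holds the empty heavy chain at the pump until a peptide fits. NLRC5 is the transcriptional coactivator of this gene set and acts through the RFX complex at the SXY module of class I promoters, and interferon and NF-kB act through elements close by. Colorectal tumours are known to lose parts of this pathway, B2M in particular.

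Assigned reads ran from 15760259 to 23269315 per library, and 17671 genes with enough counts were tested, all 9 members among them. Levels are CPM, that is read counts relative to the library total, after TMM scaling, fold changes are log2 values with their standard error (SE), and a gene was called where edgeR's adjusted p over all tested genes was under 0.05. Of 8 epithelial markers 7 had reads in every library and CDX1 was at 0 in all 8, and CDH1 (E-cadherin) stood at 194 to 394 CPM (scaled by library total) in SW620 and at 0.127 to 0.913 in SW480. The leukocyte marker PTPRC was at 0 in 7 libraries and at 0.043 CPM in the other, and the 7 leukocyte markers together came to at most 4.39 CPM. Mitochondrial genes took 1.63% of the reads of SW480 caffeine replicate 2, a share below the 4.38% to 6.16% of every other library. Reads left out for low mapping quality, where reads shared by near-identical genes end up, were 16.2% to 17.5% of all reads in the SW620 libraries and 13.3% to 14.7% in the SW480 libraries. In bulk RNA, fewer cells expressing a gene and less RNA of it per cell cannot be told apart.

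On GRCh38 (GENCODE 29) 7 of the 9 genes lie in the MHC on chromosome 6. HLA-F runs from 29722775 to 29738528, HLA-E from 30489467 to 30494205, HLA-C from 31268749 to 31272130, TAP2 from 32821833 to 32838780, TAP1 from 32845209 to 32853978 and TAPBP from 33299694 to 33314387. HLA-B is annotated from 31269491 to 31357188, a span that takes in most of HLA-C on the same strand, although their exons share only 35 bases. B2M lies on chromosome 15 (44711487 to 44718877) and NLRC5 on chromosome 16 (56989485 to 57083531). Of the 75-base windows in each gene's transcripts, the length of the reads, none of those of B2M or NLRC5 occurred in another gene, and the share was 1.3% for HLA-C, 1.67% for HLA-E, 1.09% for TAPBP, 7.96% for TAP1, 14.2% for HLA-B, 17.7% for HLA-F and 30.8% for TAP2. TAP2 shares 2064 of its 6390 exon bases with AL669918.1 on the same strand, and 1236 of the 4342 exon bases of HLA-F lie opposite other genes, so that counts of TAP2, HLA-F and HLA-B are the less certain ones. The counts do not separate the alleles of a heavy chain gene, and how well reads of these cells' own alleles matched the reference was not tested.

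The promoters of 4 genes are shown: HLA-B and B2M, which were called lower with caffeine in SW620, and HLA-C and TAP1, which were not called there. The sequences are RefSeq promoter windows on GRCh38.p14, from 250 bases before to 50 bases after the gene's start, written 5′ to 3′ along the gene. HLA-B is chr6:31357130-31357429 (minus strand), HLA-C chr6:31272043-31272342 (minus), B2M chr15:44711267-44711566 (plus) and TAP1 chr6:32853655-32853954 (minus, the window nearest the annotated gene start of 2 listed). Capitals mark matches on either strand to 5 motifs: the interferon-stimulated response element core (ISRE), which is GAAA, any 2 bases and GAAA, the shorter interferon regulatory factor element GAANNGAAA, the NF-kB site, which is GGG, any 2 bases, TT, any base and CC, TGACG of the X2 box, and CCAAT of the Y box.
HLA-B: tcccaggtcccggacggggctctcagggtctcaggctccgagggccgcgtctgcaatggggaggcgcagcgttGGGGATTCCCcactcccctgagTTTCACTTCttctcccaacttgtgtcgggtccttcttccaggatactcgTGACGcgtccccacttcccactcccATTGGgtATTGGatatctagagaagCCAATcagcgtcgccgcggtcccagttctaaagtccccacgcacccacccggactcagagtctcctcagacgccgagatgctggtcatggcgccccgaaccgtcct
HLA-C: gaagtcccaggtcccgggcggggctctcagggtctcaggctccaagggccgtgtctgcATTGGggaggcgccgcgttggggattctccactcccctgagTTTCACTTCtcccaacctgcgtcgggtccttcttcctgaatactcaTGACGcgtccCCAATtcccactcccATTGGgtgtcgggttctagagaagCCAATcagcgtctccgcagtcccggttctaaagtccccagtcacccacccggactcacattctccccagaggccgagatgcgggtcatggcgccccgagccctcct
B2M: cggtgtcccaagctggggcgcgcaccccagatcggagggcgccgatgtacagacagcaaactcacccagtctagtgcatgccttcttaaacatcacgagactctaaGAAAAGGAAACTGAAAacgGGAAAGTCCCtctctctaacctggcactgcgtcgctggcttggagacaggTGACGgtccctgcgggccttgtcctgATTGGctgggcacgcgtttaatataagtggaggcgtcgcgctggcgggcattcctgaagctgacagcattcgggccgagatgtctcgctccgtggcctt
TAP1: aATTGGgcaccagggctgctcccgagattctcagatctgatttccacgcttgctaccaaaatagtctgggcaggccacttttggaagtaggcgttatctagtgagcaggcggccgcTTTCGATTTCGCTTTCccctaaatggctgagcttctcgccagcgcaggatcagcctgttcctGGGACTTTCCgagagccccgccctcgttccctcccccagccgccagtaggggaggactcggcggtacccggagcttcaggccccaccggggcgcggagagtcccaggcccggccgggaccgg

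Of 35116 promoter windows of this length, 3.57% held the ISRE core, 7.66% the shorter element, 5.68% the NF-kB site, 24.6% TGACG and 34.6% CCAAT. The HLA-B window held, from its far end, the NF-kB site at -177, the shorter interferon element at -155, TGACG at -106 and CCAAT in 3 places from -81 to -56. Positions are counted from the gene's RefSeq start. The HLA-C window held the same elements save the NF-kB site. The B2M window had 2 overlapping ISRE cores at -144 and -138, an NF-kB site at -125, TGACG at -75 and CCAAT at -49, and the TAP1 window 2 overlapping ISRE cores at -134 and -128, an NF-kB site at -72 and CCAAT at -249, with no TGACG. Of the windows not shown, that of TAPBP held an NF-kB site at -56 and overlapping ISRE cores at -20 and -14. The TAP2 window held an ISRE core at -58, the shorter interferon element at -63 and TGACG at -35. The HLA-F window held an ISRE core at -156 and CCAAT at -82 and -57. No NF-kB site was found in the TAP2 and HLA-F windows. For HLA-E and NLRC5 no promoter window was available. The motifs were chosen with the sequences in view, and a match is letters only, not a bound site. Whether these motifs had a part in the responses to caffeine was not tested.

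Per length of all exons, HLA-C was the highest of the 9 genes in each group, and HLA-F or NLRC5 the lowest. In RPKM, which is CPM divided by the length of all exons in kilobases, the SW620 control libraries held HLA-C at 172 and 186, B2M at 93.6 and 102, HLA-B at 61.1 and 63.2 and HLA-E at 35.5 and 36.6. The loading genes stood lower in the same libraries, with TAPBP at 6.69 and 7.14 RPKM, TAP1 at 5.07 and 5.19 and TAP2 at 4.91 and 5.04. NLRC5 had 2.80 and 3.05 RPKM there, and HLA-F, a poorly expressed heavy chain, 0.381 and 0.513. In SW480 control libraries HLA-C had 123 and 164 RPKM, B2M 48.8 and 58.9, HLA-E 39.1 and 40.3 and HLA-B 31.9 and 37.6. There TAP1 at 7.96 and 8.03 RPKM stood above TAPBP (5.66 and 7.32) and TAP2 (4.81 and 5.26), and HLA-F (1.81 and 1.83) above NLRC5 (0.721 and 0.752). Neighbours in these orders did not overlap in any group, with 2 libraries each, but some orders depend on the length used. With the longest transcript in place of all exons, HLA-B stood above HLA-E in all 4 groups. B2M then stood above HLA-C in SW620 controls (248 and 239 RPKM on average), and TAP1 above TAPBP in SW620 with caffeine (8.42 and 7.93 RPKM). The exons of B2M cover 6079 bases over 15 transcripts, and its longest transcript has 2403. Shorter transcripts were not tried as lengths, so the place of B2M against HLA-C is not settled.

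**Figure D1:**
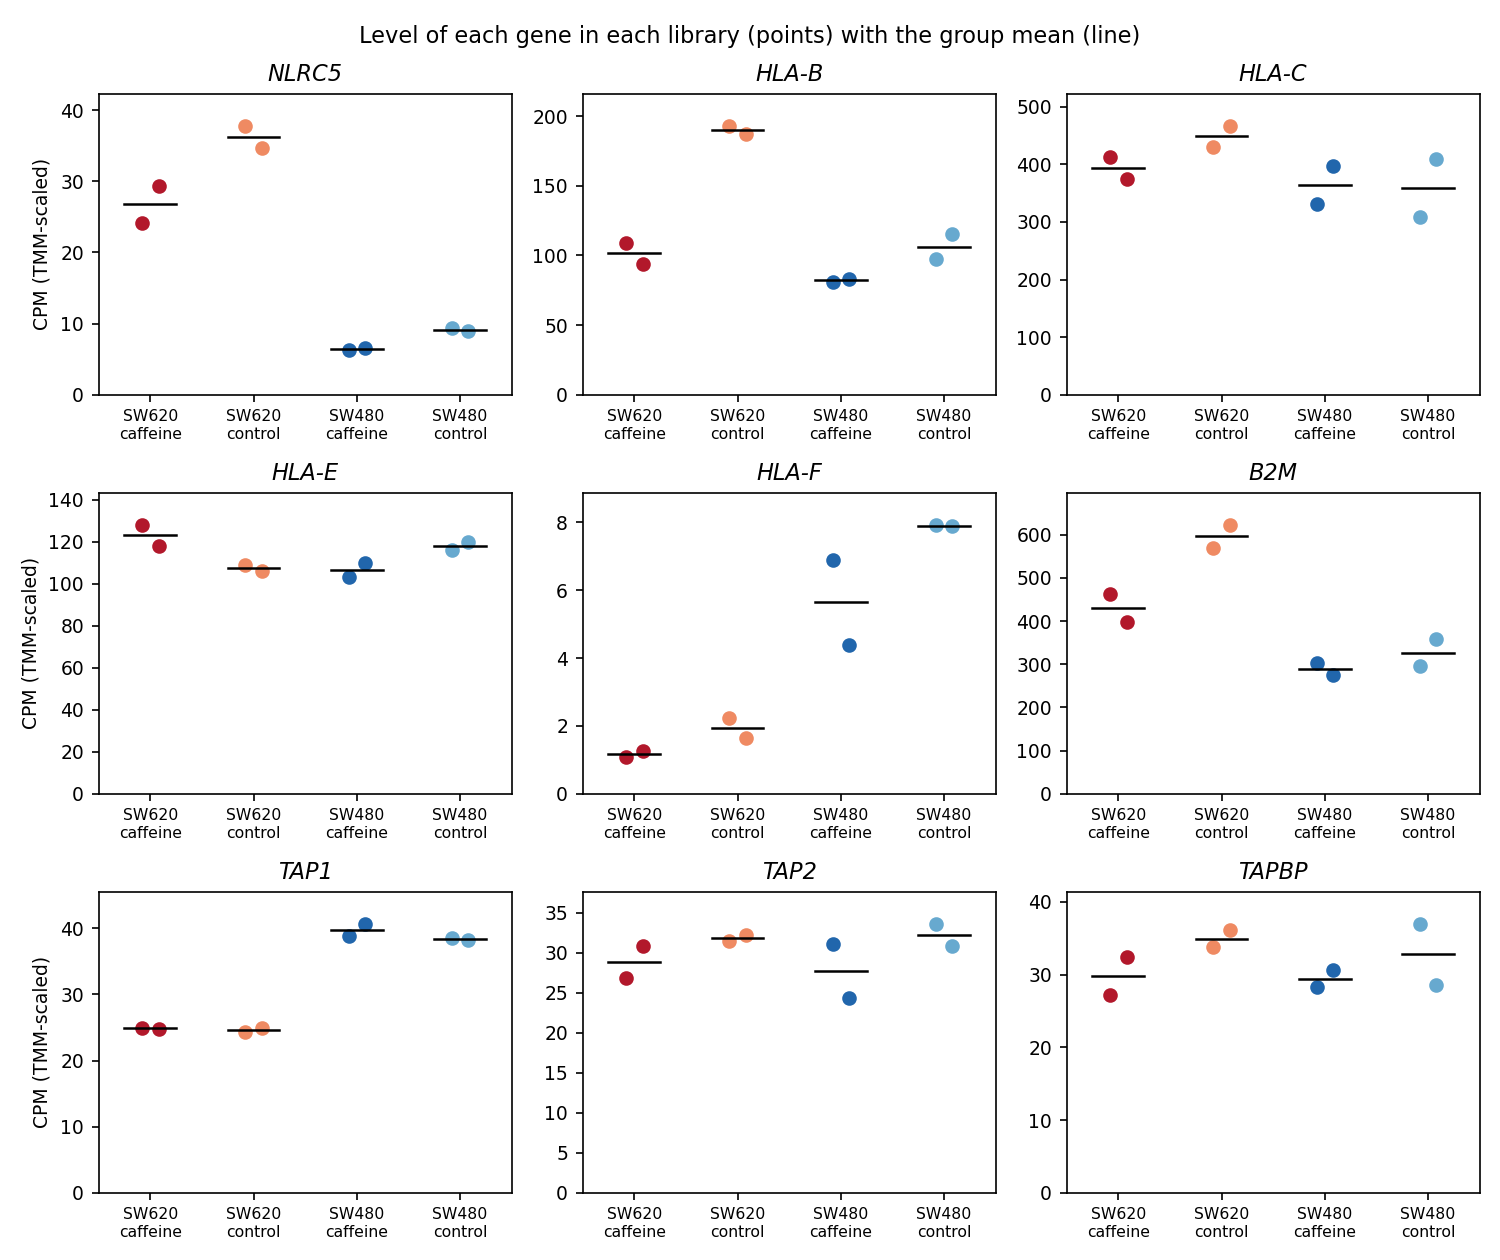
CPM after TMM scaling of each of the 9 genes in the 8 libraries (points, 2 per group), with the group mean as a line, all axes from 0. HLA-B in SW620 lies at 94.1 to 109 CPM with caffeine and at 187 to 193 CPM without, and NLRC5 is above 24 CPM in every SW620 library and below 10 CPM in every SW480 library.

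In SW620, HLA-B, B2M and NLRC5 fell with caffeine, and HLA-B fell most, to about 0.536 of its control level. Of the 9 genes 3 were called, all 3 lower, where 14.4% of all tested genes were called (8.1% higher and 6.25% lower). The median log2 fold change of the 9 was -0.23, and that of all tested genes -0.01. Libraries with and without caffeine did not overlap for 8 of the 9, TAP1 being the exception, and the same held for 62.2% of all tested genes. Some markers of other cell types moved in the same libraries: the 4 endothelial markers, with KDR at 0 in all 4 SW620 libraries, summed to 15.2 to 15.5 CPM with caffeine, against 9.62 to 9.69 CPM in controls. Among them PECAM1 and VWF stood higher with caffeine, and CDH5 lower (0.178 and 0.15 CPM, against 0.357 and 0.202). The 5 fibroblast markers, of which 1 or 2 were at 0 in each library (DCN at 0 in 3 of 4, COL1A2 in 3 of 4), summed to 45.6 to 48.5 CPM with caffeine, against 38.1 to 40.4 CPM in controls. The 8 epithelial markers summed to 12900 to 14300 CPM with caffeine, against 10800 CPM in each control library. Keratins made up most of that sum. CDH1 (367 and 394 CPM with caffeine, against 194 and 201) and VIL1 (467 and 460 CPM, against 434 and 441) also stood higher with caffeine. EPCAM (632 and 571 CPM with caffeine, against 701 and 712) and CDX2 (79.9 and 87.6 CPM, against 135 and 130) stood lower. The part of these marker shifts in the members' changes was not tested.

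HLA-B, which presents peptides to CD8 T cells and carries ligands of natural killer receptors, had 109 and 94.1 CPM in the caffeine libraries, against 193 and 187 CPM in the control libraries. Both caffeine values were below both control values, with a log2 fold change of -0.90 ± 0.13 (SE, adjusted p = 0.000149), and the call held when any 1 of the 8 libraries was left out (adjusted p from 3.77e-06 to 0.00549). B2M, the light chain that every class I molecule needs to reach the surface, had 463 and 398 CPM with caffeine, against 569 and 623 CPM in controls. Its log2 fold change was -0.47 ± 0.13 (adjusted p = 0.0227), and the call was lost without caffeine replicate 2 (0.233), control replicate 1 (0.0991) or control replicate 2 (0.241). NLRC5 had 24.2 and 29.3 CPM with caffeine, against 37.8 and 34.7 CPM in controls. Its change of -0.44 ± 0.14 was just past the threshold (adjusted p = 0.0442), and it missed it without any 1 of the 4 SW620 libraries (adjusted p from 0.0596 to 0.342), with DESeq2 (0.0672) and with no filter on low counts (0.0691).

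The other heavy chains were not called in SW620. HLA-C, the main heavy chain transcript of both lines, had 413 and 375 CPM with caffeine, against 431 and 467 CPM in controls, a log2 fold change of -0.19 ± 0.14 (adjusted p = 0.42). HLA-E, which displays leader peptides of other class I chains to the natural killer receptor NKG2A, had 128 and 118 CPM with caffeine, against 109 and 106 CPM in controls, with 0.20 ± 0.12 (adjusted p = 0.277). HLA-F rested on 18 and 25 reads with caffeine and 44 and 33 reads in controls, with -0.72 ± 0.33 (adjusted p = 0.161).

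TAP1 was the gene with the smallest difference in SW620, at 25 and 24.8 CPM with caffeine and 24.3 and 25 CPM in controls (0.02 ± 0.13, adjusted p = 0.968). TAP2 had 26.8 and 30.8 CPM with caffeine, against 31.4 and 32.2 CPM in controls (-0.14 ± 0.15, adjusted p = 0.574), and TAPBP 27.2 and 32.4 CPM, against 33.8 and 36.1 CPM (-0.23 ± 0.15, adjusted p = 0.344). By its RefSeq window TAP1 starts 488 bases from the start of PSMB9, and its GENCODE start (32853978) lies nearer. PSMB9 is read in the opposite direction and encodes a catalytic subunit of the immunoproteasome. PSMB9 fell in the same libraries, to 3.27 and 3.57 CPM with caffeine, against 7.44 and 8.02 CPM in controls (-1.17 ± 0.18, adjusted p = 0.000456), and the difference between the responses of these neighbours was not tested.

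In SW480 none of the 9 genes was called by edgeR, where 3.6% of all tested genes were (1.67% higher and 1.93% lower). DESeq2 and limma-voom also called none, and 3 genes had an unadjusted p under 0.05 in edgeR: NLRC5, HLA-B and HLA-F. The median log2 fold change of the 9 was -0.18, against 0.00 for all tested genes, and 5 of the 9 had libraries that did not overlap, as did 43% of all tested genes. NLRC5 had 6.31 and 6.60 CPM in the caffeine libraries, against 9.32 and 8.93 CPM in the control libraries (-0.50 ± 0.17, adjusted p = 0.115). HLA-B had 81.0 and 83.4 CPM with caffeine, against 97.2 and 115 CPM in controls (-0.37 ± 0.13, adjusted p = 0.122). For both genes the caffeine values lay below the control values, by less than the test over all genes required.

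HLA-F had 6.89 and 4.39 CPM with caffeine in SW480, against 7.93 and 7.88 CPM in controls (-0.51 ± 0.23, adjusted p = 0.223), and it was called without caffeine replicate 1 (-0.85, adjusted p = 0.0491), when the lone caffeine library was the one low in mitochondrial reads. HLA-E had 103 and 110 CPM, against 116 and 120 CPM (-0.15 ± 0.12). The caffeine and control libraries overlapped for HLA-C (331 and 398 CPM, against 309 and 410), B2M (302 and 275 CPM, against 296 and 358), TAP2 (31.1 and 24.3 CPM, against 33.6 and 30.8) and TAPBP (28.3 and 30.6 CPM, against 37.0 and 28.6). TAP1 had 38.8 and 40.7 CPM with caffeine, against 38.6 and 38.2 CPM in controls (0.05 ± 0.12).

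**Figure D2:**
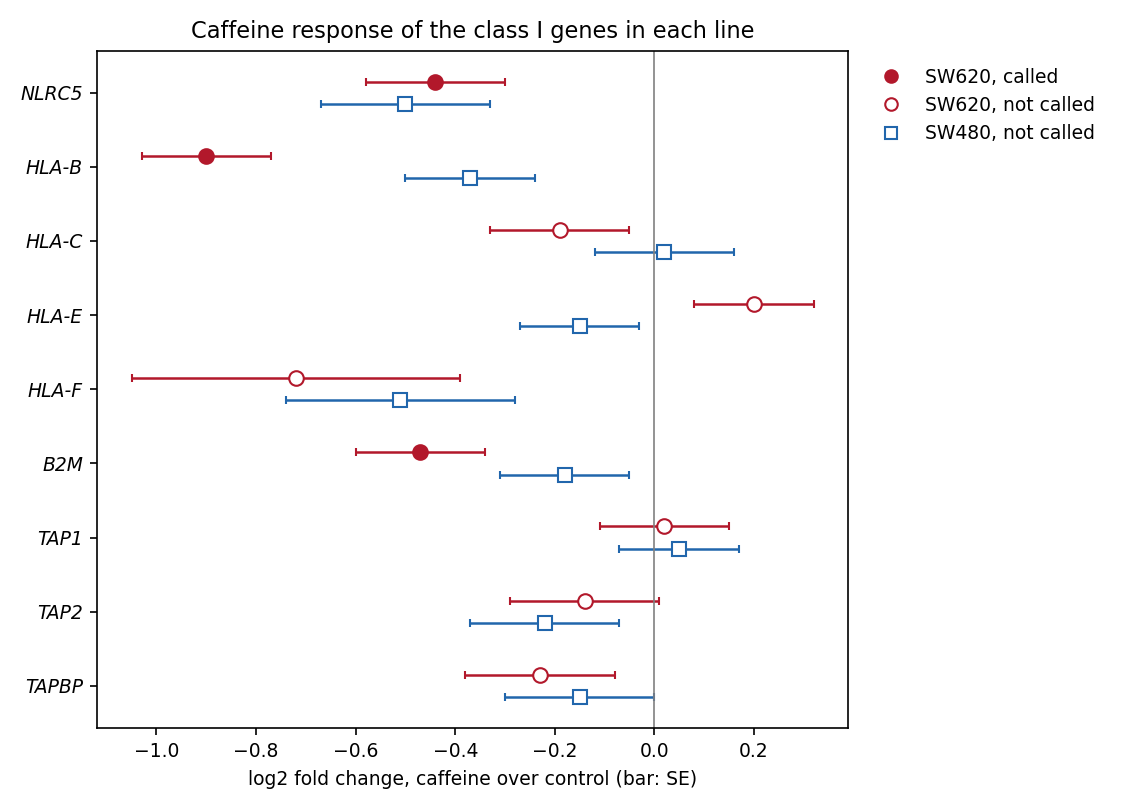
Log2 fold change of each gene with caffeine over control (points) and its standard error (bars) in SW620 (circles) and SW480 (squares), with called genes filled. HLA-B, B2M and NLRC5 in SW620 are the filled points, at -0.90, -0.47 and -0.44, and TAP1 lies at 0.02 and 0.05 in the 2 lines.

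Whether a gene responded differently in SW620 and SW480 was tested as the difference of the 2 effects (SW620 minus SW480), and none of the 9 was called, where 6.71% of all tested genes were (4.24% higher and 2.47% lower). DESeq2 and limma-voom called none, and HLA-B and HLA-E had an unadjusted p under 0.05 in edgeR. HLA-B differed by -0.53 ± 0.18 (adjusted p = 0.0814), that is, its fitted response was the more negative one in SW620, and the difference was called without SW480 control replicate 2 (-0.63, adjusted p = 0.0253). HLA-E, with effects of opposite sign in the lines, differed by 0.35 ± 0.16 (adjusted p = 0.209). B2M differed by -0.29 ± 0.18 (adjusted p = 0.377) and NLRC5 by 0.06 ± 0.22 (adjusted p = 0.916), so that the larger B2M effect in SW620 was not shown to differ from that in SW480.

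Fitted as 1 response over both lines, caffeine libraries had less HLA-B (-0.64 ± 0.12, adjusted p = 0.0132) and NLRC5 (-0.46 ± 0.12, adjusted p = 0.0468). These 2 of 9 compare with 3.36% of all tested genes (1.68% in each direction). HLA-B lost its call without SW620 caffeine replicate 1 (adjusted p = 0.0567), and NLRC5 lost it without any 1 of the 8 libraries (0.0573 to 0.19) and with limma-voom (0.0505). B2M (-0.33 ± 0.11, adjusted p = 0.113) and HLA-F (-0.58 ± 0.20, adjusted p = 0.123) were not called. B2M was called as the mean of the lines' contrasts (adjusted p = 0.0349) and without SW480 control replicate 1 (0.0337).

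The share of HLA-B in the heavy chain reads was lower with caffeine in both lines. It took 16.8% and 16.0% of the reads on the 4 heavy chain genes in the SW620 caffeine libraries, against 26.2% and 24.5% in the SW620 controls. In SW480 it took 15.5% and 14.0% with caffeine, against 18.3% and 17.6% in controls. In each line both caffeine shares lay below both control shares, and no test was made on the shares. HLA-C took 58.3% to 66.8% in all 8 libraries, and HLA-E 19.6% and 20.1% in SW620 with caffeine, against 14.8% and 13.9% in SW620 controls. In SW480 the HLA-E shares overlapped, at 19.7% and 18.4% with caffeine, against 21.9% and 18.4% in controls. B2M had 0.710 and 0.676 reads for each heavy chain read in SW620 with caffeine, against 0.775 and 0.818 in SW620 controls, and 0.579 and 0.462 in SW480 with caffeine, against 0.559 and 0.548 in SW480 controls.

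**Figure D3:**
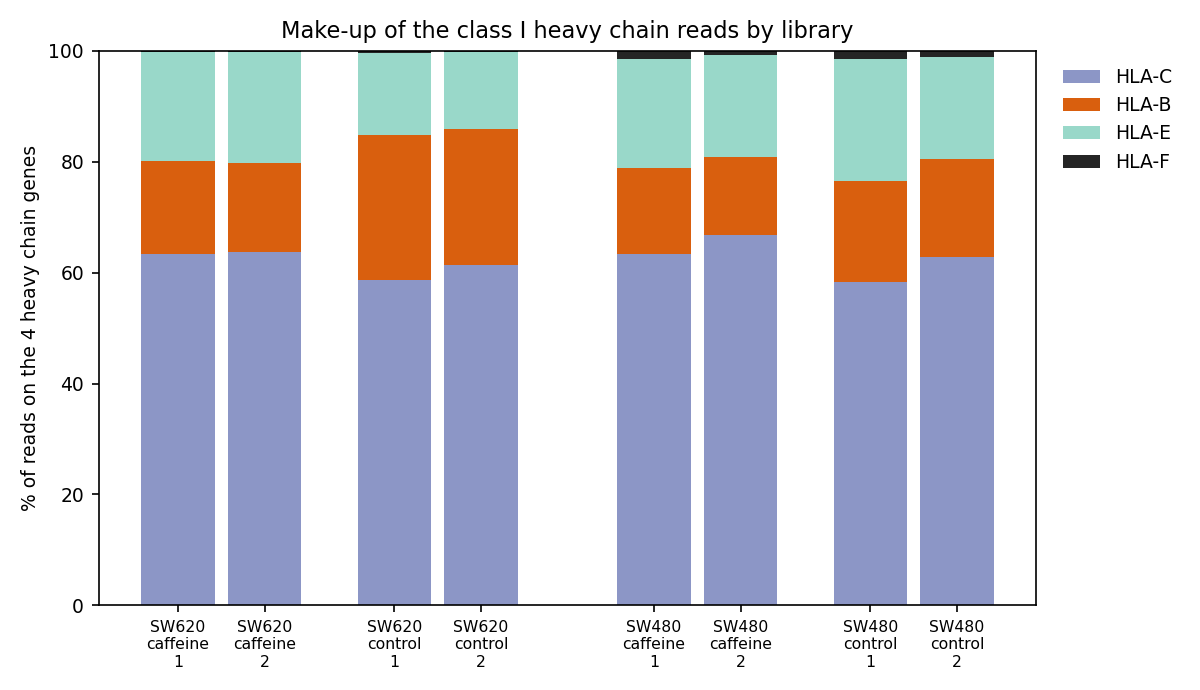
Share of each gene in the reads on HLA-C, HLA-B, HLA-E and HLA-F (stacked bars, % of the 4 genes' reads) in each library, labelled by line, treatment and replicate. The HLA-B part is 24.5% to 26.2% in SW620 controls and 14.0% to 18.3% in the other 6 libraries.

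Without caffeine, SW620 and SW480 differed in 5 of the 9 genes, with NLRC5, HLA-B and B2M higher and HLA-F and TAP1 lower in SW620. The lines differed widely, and 65.6% of all tested genes were called in this comparison (33% higher and 32.6% lower in SW620), so that 5 of 9 is near the background. For 7 of the 9 the libraries of the lines did not overlap, as for 83.4% of all tested genes. The control libraries are also those of the caffeine comparisons.

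NLRC5 had 37.8 and 34.7 CPM in SW620 controls, against 9.32 and 8.93 CPM in SW480 controls, a log2 fold change of 1.99 ± 0.15 (adjusted p = 4.72e-09), or 3.97-fold. HLA-B had 193 and 187 CPM in SW620, against 97.2 and 115 CPM in SW480 (0.84 ± 0.13, adjusted p = 1.77e-05), and B2M 569 and 623 CPM, against 296 and 358 CPM (0.87 ± 0.13, adjusted p = 1.97e-05). These 3 stood higher in both SW620 libraries than in both SW480 libraries. HLA-F had 2.23 and 1.65 CPM in SW620, against 7.93 and 7.88 CPM in SW480 (-2.02 ± 0.26, adjusted p = 2.71e-06), and TAP1 24.3 and 25 CPM, against 38.6 and 38.2 CPM (-0.64 ± 0.13, adjusted p = 0.000283). The 5 calls held when any 1 of the 8 libraries was left out.

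HLA-C, at 431 and 467 CPM in SW620 and 309 and 410 CPM in SW480, missed the threshold (0.32 ± 0.14, adjusted p = 0.0575), and passed it with limma-voom (0.0476) and without SW480 control replicate 2 (0.00464). HLA-E (-0.14 ± 0.12), TAPBP (0.09 ± 0.15) and TAP2 (-0.02 ± 0.15) were not called. The share of reads left out for low mapping quality moved with the line, at 17.4% and 17.5% in SW620 controls, against 13.3% and 14.6% in SW480 controls, and its part in these differences was not tested. Marker sums moved with the line as well, with 10800 CPM of epithelial markers in each SW620 control, against 4650 to 5880 CPM in SW480 controls. Fibroblast markers summed to 38.1 to 40.4 CPM, against 5.99 to 6.21 CPM, where LUM made up most of the SW620 sum and was at 0 in SW480, and endothelial markers to 9.62 to 9.69 CPM, against 1.7 to 2.05 CPM, and their part was not tested either.

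**Figure D4:**
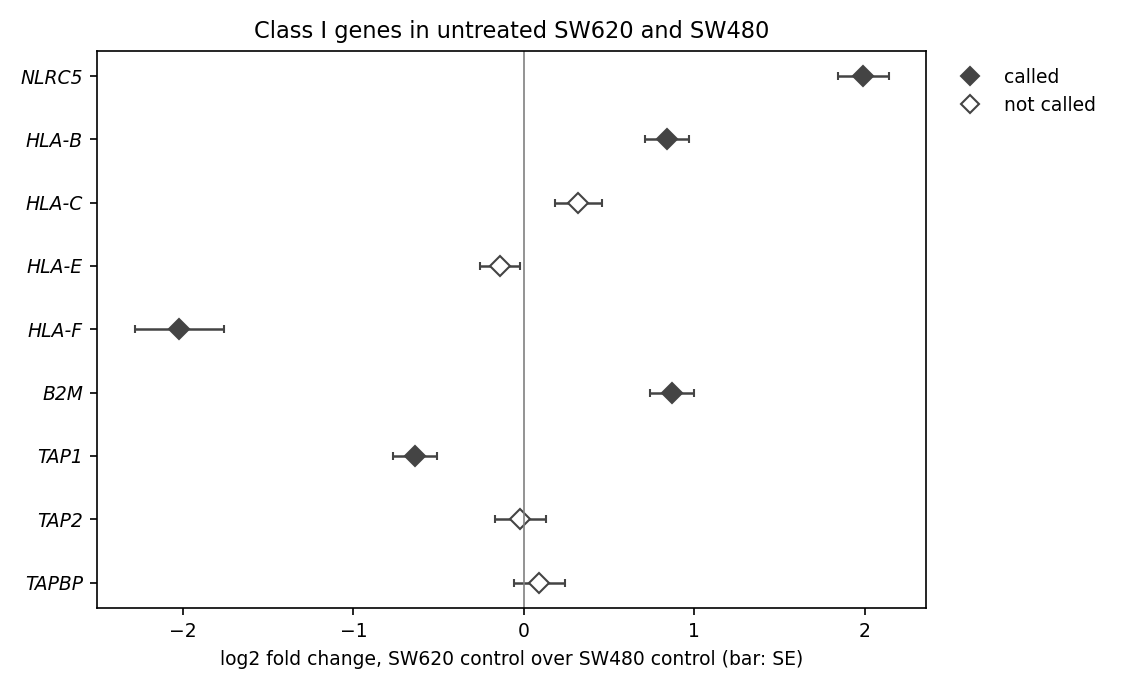
Log2 fold change of each gene in SW620 control over SW480 control libraries (points) with its standard error (bars), with called genes filled. NLRC5 at 1.99 and HLA-F at -2.02 lie farthest from 0 on either side.

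Other genes of the pathway were taken as 7 lists. In SW620, 6 of their 48 tested genes (12.5%) were called with caffeine, 2 lower and 4 higher, a share near the 14.4% of all tested genes (8.1% higher and 6.25% lower). The lower ones were PSMB9, already described, and RFXAP, a subunit of the RFX complex that binds the X box and recruits NLRC5. RFXAP had 14.9 and 15.7 CPM in the SW620 caffeine libraries, against 24.9 and 25.5 CPM in the controls (-0.72 ± 0.15, adjusted p = 0.00331), a call that held without any 1 library (adjusted p up to 0.0491). In SW480 RFXAP had 19.8 and 15.8 CPM with caffeine, against 20.5 and 19.8 CPM in controls, and was not called.

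The 4 genes that rose in SW620 were the NF-kB subunit RELA (0.39 ± 0.12, adjusted p = 0.0336), the kinase JAK1 (0.50 ± 0.13, 0.013) and the transcription factor STAT2 (0.42 ± 0.13, 0.0354) of interferon signalling, and SYVN1, an ubiquitin ligase of endoplasmic reticulum quality control (0.49 ± 0.13, 0.0156). RELA had 110 and 102 CPM with caffeine, against 80.9 and 81.3 CPM in controls, and JAK1 209 and 241 CPM, against 157 and 160 CPM. Each of the 4 lost its call without at least 3 of the 4 SW620 libraries, with adjusted p up to 0.238 for RELA, 0.155 for JAK1, 0.301 for STAT2 and 0.2 for SYVN1. JAK1 was the 1 gene of these lists besides PSMB9 whose response differed between the lines (0.66 ± 0.18, adjusted p = 0.0359), which was lost without any of 5 libraries (adjusted p from 0.0883 to 0.163).

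By list in SW620, of 13 transcription factors 1 rose and 1 fell, of 8 interferon gamma signalling genes 2 rose, of 5 immunoproteasome and PA28 genes 1 fell and of 7 repressors 1 rose, counts of 1 or 2 genes to be read against the 8.1% of all tested genes that rose and the 6.25% that fell. None of the 7 peptide loading and trimming genes was called by edgeR, DESeq2 or limma-voom, and none had an unadjusted p under 0.05. None of the 5 other class I-like heavy chains tested was called by any of these tools, with 2 at an unadjusted p under 0.05, nor any of 3 class II genes tested, with 1. The class II chains HLA-DRA, HLA-DRB1, HLA-DPA1 and HLA-DPB1 and the class I-like CD1D had too few reads to be tested. Medians of the lists in SW620 ran from -0.70 for the class II genes to 0.30 for interferon gamma signalling. The interferon-inducible IRF1 had 40.8 and 37.3 CPM with caffeine, against 35.4 and 36.8 CPM in controls (0.11 ± 0.14, adjusted p = 0.655).

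In SW480, 3 of the 48 tested list genes (6.25%) were called with caffeine, all lower, where 3.6% of all tested genes were called and 1.93% were lower. MR1, which presents vitamin B metabolites to MAIT cells, had 3.15 and 3.41 CPM with caffeine, against 5.32 and 5.84 CPM in controls (-0.76 ± 0.19, adjusted p = 0.0364). AZGP1, a secreted class I-like protein, had 9.20 and 6.90 CPM, against 13.1 and 13.4 CPM (-0.74 ± 0.17, adjusted p = 0.0259). CD74, the invariant chain of class II, had 2.7 and 2.17 CPM, against 4.36 and 5.43 CPM (-1.02 ± 0.27, adjusted p = 0.0456). Both caffeine values lay below both control values for all 3, which adds little, since the 3 were picked by their calls. Libraries did not overlap for 43% of all tested genes in SW480. CD74 was also the 1 list gene called over both lines (-1.02 ± 0.26, adjusted p = 0.0468). That call was lost in 7 of 8 fits with a library left out, and over the 8 fits the log2 fold change ran from -1.14 to -0.91. MR1 kept its call in 2 of the 8 fits that leave out a library, AZGP1 in 6 and CD74 in 4, with adjusted p up to 0.189, 0.309 and 0.351. CD74 also missed the threshold with DESeq2 (0.119) and MR1 with limma-voom (0.0772). Without the caffeine library low in mitochondrial reads, replicate 2, none of the 3 was called. The other lists had no call in SW480 by edgeR, DESeq2 or limma-voom, with an unadjusted p under 0.05 for 1 of 8 interferon gamma signalling genes and 1 of 7 repressors.

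Between the untreated lines, of the tested genes of each list, 5 of 5 other class I-like chains were higher in SW620, 5 of 8 interferon gamma signalling genes higher and 1 lower, and 3 of 13 transcription factors higher and 2 lower. Of 7 repressors 1 was higher and 4 lower, of 7 loading genes 1 higher and 3 lower, of 5 immunoproteasome and PA28 genes 1 higher and 2 lower, and of 3 class II genes 2 higher and 1 lower. Among the higher interferon gamma signalling genes, SOCS1 rested on 15 and 17 reads in SW620 controls, against 4 and 5 in SW480 controls. Over the lists 31 of 48 genes (64.6%) were called, near the 65.6% of all tested genes (33% higher and 32.6% lower).

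The 5 class I-like chains were HFE, the iron regulator (2.80 ± 0.19, adjusted p = 1.26e-09), AZGP1 (2.61 ± 0.16, 2.32e-10), MR1 (2.19 ± 0.16, 2.74e-09), HLA-G (1.88 ± 0.51, 0.00363) and FCGRT, the neonatal Fc receptor (1.23 ± 0.14, 1.04e-06). HFE had 18.2 and 18.8 CPM in SW620 controls, against 3.15 and 2.16 CPM in SW480 controls. HLA-G rested on few reads, 20 and 33 in SW620 controls, against 8 and 4 in SW480 controls. IRF1, an activator of class I promoters, was higher in SW620 as well (0.71 ± 0.14, adjusted p = 0.000378), at 35.4 and 36.8 CPM, against 20.1 and 24 CPM in SW480. The chaperone CALR (-0.74 ± 0.12, 4.59e-05) was lower in SW620, as were CANX (-0.46 ± 0.14, 0.0073) and UGGT1 (-0.45 ± 0.13, 0.00671), which lost their calls without SW480 control replicate 1 (0.0678 and 0.0502) and without 1 SW620 control library each (0.0538 and 0.0753). CIITA, the class II counterpart of NLRC5, had 0.506 and 1.00 CPM in SW620 controls, against 0.363 and 0.467 CPM in SW480 controls (0.85 ± 0.56, adjusted p = 0.194).

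**Figure D5:**
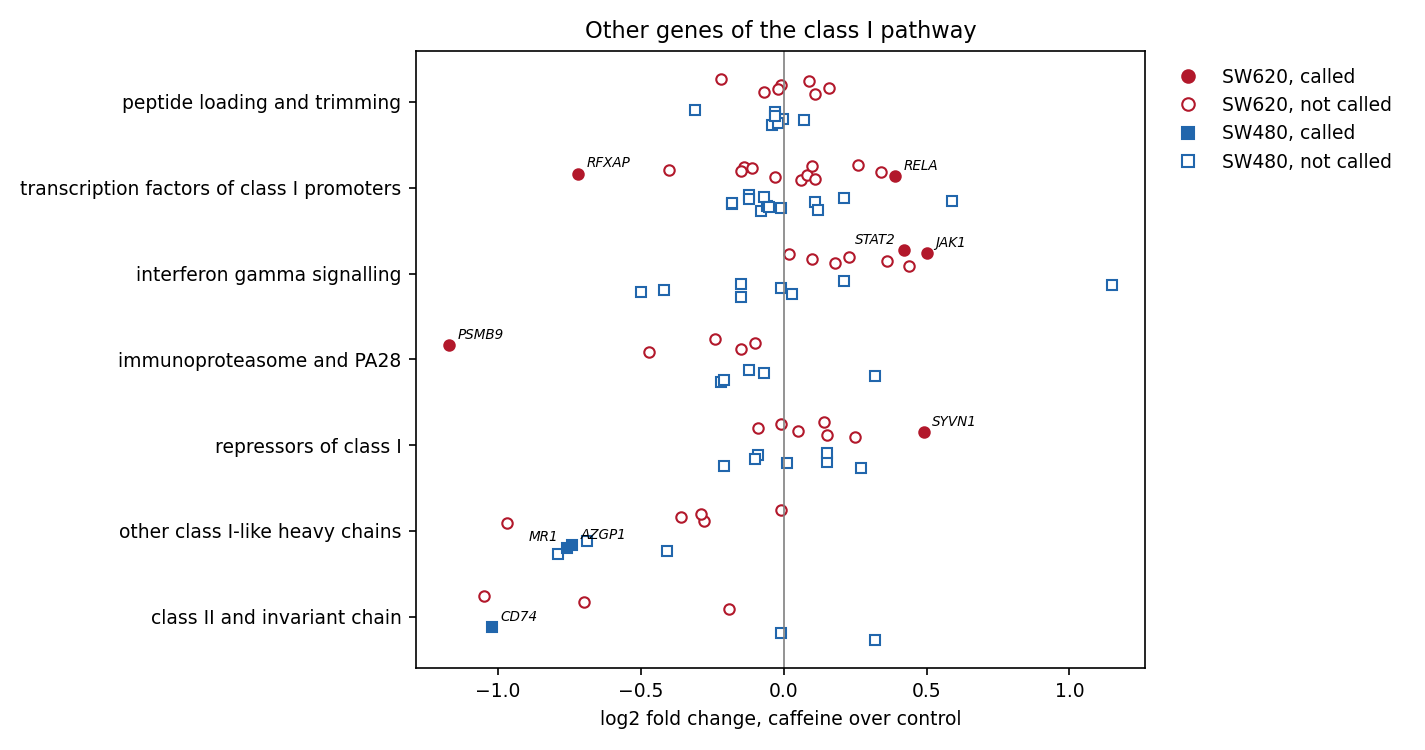
Log2 fold change with caffeine over control of each tested gene of the 7 pathway lists (rows) in SW620 (circles) and SW480 (squares), with called genes filled and named; height within a row only separates points. PSMB9 (-1.17) and RFXAP (-0.72) in SW620 and CD74 (-1.02) in SW480 lie to the left, and RELA, STAT2, SYVN1 and JAK1 in SW620 lie between 0.39 and 0.50.

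Likeness to a member was measured as the root mean square difference of log2 CPM, centred over the 8 libraries, among 12464 other genes, and much of it follows the difference between the lines. The genes nearest to NLRC5 were PLXND1, a semaphorin receptor (0.09), IFIH1, the RNA sensor MDA5 (0.11), and USH1C, a scaffold protein (0.13). IFIH1 averaged 21.6 ± 0.872 CPM in SW620 with caffeine and 28.4 ± 0.944 in SW620 controls (SD, n = 2 each), and 4.95 ± 0.556 in SW480 with caffeine and 7.52 ± 0.149 in SW480 controls. Nearest to B2M were SEC11A, a signal peptidase subunit (0.05), TSPAN6 (0.07) and ENSG00000286158 (0.08), and nearest to HLA-B were ENSG00000250397 (0.14), PJVK (0.15) and TMEM165 (0.16). Nearest to TAP1 were WDR12 (0.04), NDFIP1 (0.05) and TIMP2 (0.05). Of the other members B2M was the closest to HLA-B (0.19, place 23), and none of the members came nearer to TAP1 than HLA-E (0.36, place 4533).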

How the data were processed

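Poly-A RNA of 8 libraries was sequenced as single-end reads of 75 bases from a directional kit, with RNA integrity numbers of at least 8, per the labels. The authors deposited raw counts per Ensembl gene, 1 library per file. The tools named in the submitters' processing notes are Trim Galore, STAR 2.7.3a and featureCounts 2.0.5, with hg38. The strand setting and annotation release are not given in the sources used here, so reads in bases shared by genes on opposite strands may or may not be separated.

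The 12 assignment totals per file were left out. Of 62649 gene IDs, 62625 matched a symbol and 58225 GENCODE 29, from which coordinates and lengths were taken. Tests used edgeR 4.0.16 in R 4.3.3 (filterByExpr, TMM, robust quasi-likelihood fit of all 8 libraries with 4 group means, Benjamini-Hochberg adjustment over 17671 genes, threshold 0.05) and, for the response over both lines, a model of line plus treatment. All groups, of 2 libraries each, share an estimate of spread that is made gene by gene. The common biological coefficient of variation over all genes was 10.5%. The SE of an edgeR log2 fold change is its size divided by the square root of the quasi-likelihood F statistic. A gene at 0 may have up to 3 counts (95%), or 0.129 to 0.190 CPM, for counting error only. The fit was tested on simulated data. Alternatives were DESeq2 size factors, no filter, DESeq2 1.42.0 (Wald), voom in limma 3.58.1, a replicate block, separate fits of each line, no mitochondrial genes, the mean of the lines' contrasts, and each library left out.

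The members and lists were chosen with earlier results of these data known. Named were all members, up to 4 genes of each list per comparison by adjusted p, and the 3 genes most like HLA-B, B2M, TAP1 and NLRC5 among genes with a mean log2 CPM (prior count 2) of at least 1. IRF1 and RFXAP with caffeine, HLA-G, SOCS1 and CIITA were named after their values were seen. The 7 lists were peptide loading and trimming, transcription factors of class I promoters, interferon gamma signalling, immunoproteasome and PA28, repressors of class I, other class I-like heavy chains, and class II with the invariant chain.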

Additional observations from a re-analysis of the deposited data

How the results depend on the processing

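Of 657 refitted log2 fold changes of the 9 genes, 610 kept their direction and side of the threshold, 21 lost and 7 gained a call, and 19 changed sign, none of them called in either fit. The number of genes called with caffeine in SW620, 3 of 9, was 1 to 3 with a library left out, and in SW480 and for the difference of effects 0 to 1. Between untreated lines it was 5 to 6, and over both lines 0 to 2, with 1 under limma-voom and 1 with the replicate block. Over all genes, calls with caffeine in SW620 numbered 2537, and 4617 in a separate fit of the line and 801 to 3245 with a library left out. In SW480 they numbered 636, and 1073 with no filter and 56 to 1421 with a library left out. The difference of effects had 1185 calls, and 451 to 2188 with a library left out. Over both lines there were 594, and 1266 with no filter, 317 with the replicate block, 1663 as the mean of the lines' contrasts and 140 to 780 with a library left out. With the longest transcript as length, 3 of 9 genes kept their rank in every group. With the replicate number as a block, NLRC5 was not called in SW620 (adjusted p = 0.0605) or over both lines (0.086) and HLA-C was called between lines (0.0479), and of the named list genes RELA (0.0544) and STAT2 (0.057) in SW620 and CD74 in SW480 (0.0536) and over both lines (0.083) were not called. Same-numbered libraries deviated together by correlations of -0.189 to 0.0265, so that the numbers are not taken to pair the libraries. The cause of these shifts was not tested, beyond fewer libraries or other genes entering a fit.

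The sign changes were all of uncalled values. A library left alone in its group is assumed to vary like those of the other groups. In SW480, HLA-C had a log2 fold change of -4.1e-05 with DESeq2, and with a library left out it ran from -0.17 (without control replicate 1) to 0.22, TAP1 from -0.01 (without caffeine replicate 2) to 0.08, and TAPBP from -0.34 to 0.04 (without control replicate 1). The difference of effects ran from -0.49 to 0.13 (without SW480 caffeine replicate 1) for HLA-F, from -0.06 to 0.03 (without SW480 caffeine replicate 2) for TAP1 and from -0.06 (without SW480 caffeine replicate 2) to 0.27 for TAP2. It ran from -0.27 to 0.13 (without SW480 control replicate 2) for TAPBP and from -0.08 (without SW620 caffeine replicate 2) to 0.21 for NLRC5. Between untreated lines TAP2 ran from -0.11 to 0.04 (without SW480 control replicate 1) and TAPBP from -0.12 (without SW480 control replicate 2) to 0.28. Over both lines HLA-E ran from -0.03 (without SW620 caffeine replicate 1) to 0.08. Depth limits HLA-F most, with 18 to 44 reads per SW620 library.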
